A study of Mus musculus with 10 samples.

Results

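Arginine and polyamine metabolism was examined through 10 genes: the arginine transporters Slc7a1 and Slc7a2, the arginine-forming enzyme Ass1, the arginine-consuming enzymes Arg1, Arg2 and Nos2, and the polyamine enzymes Odc1, Srm, Sms and Sat1. They were picked by gene symbol from the 18384 genes listed in the mRNA-seq files, and all 10 were listed. The cells were adipocyte precursors (APs) from mouse subcutaneous white adipose tissue of C57BL/6J mice, depleted of CD45-positive and CD31-positive cells and then selected for SCA-1. They were cultured in DMEM F12 with fetal bovine serum, without treatment (control, replicates 1 to 3) or with the type 2 cytokine interleukin-4 (IL-4, replicates 4 to 6), and were harvested on day 4. The labels call the 3 libraries of each group biological replicates; the age of the mice, whether cultures came from separate mice, and the IL-4 dose were not given in the sources used here.

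Arginine enters most cells through cationic amino acid transporters, and some cells also make it from citrulline. Inside the cell, arginase turns it into ornithine and urea, and nitric oxide synthase turns it into nitric oxide and citrulline, so both enzymes draw on one substrate. Ornithine feeds the polyamines putrescine, spermidine and spermine, small positively charged molecules that dividing cells need, and it also feeds proline, a main building block of collagen. Macrophages exposed to IL-4 are known for high arginase 1, and APs respond to the same cytokine.

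RefSeq promoters (build GRCm38.p6, the same assembly as mm10) were matched for 5 of the 10 genes, with 7 promoters among them. No promoter was matched for Arg1, Arg2, Nos2, Slc7a2 and Srm, so theirs were not examined. Promoter stretches are shown for Odc1, the member that fell, and for Slc7a1, the matched transporter. Each runs 5′ to 3′ on the strand of the gene and stops before the first annotated exon base. The Odc1 stretch is chr12:17544623-17544807 on the plus strand, and the Slc7a1 stretches lie before an upstream start (chr5:148399905-148400154) and before a start inside the gene (chr5:148392816-148393065), both on the minus strand. Capitals mark the only match to TTCNNNGAA in the matched promoters.
Odc1: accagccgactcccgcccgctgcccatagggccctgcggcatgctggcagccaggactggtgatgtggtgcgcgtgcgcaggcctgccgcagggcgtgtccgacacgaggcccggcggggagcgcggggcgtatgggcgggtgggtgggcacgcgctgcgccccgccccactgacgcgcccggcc
Slc7a1, upstream start: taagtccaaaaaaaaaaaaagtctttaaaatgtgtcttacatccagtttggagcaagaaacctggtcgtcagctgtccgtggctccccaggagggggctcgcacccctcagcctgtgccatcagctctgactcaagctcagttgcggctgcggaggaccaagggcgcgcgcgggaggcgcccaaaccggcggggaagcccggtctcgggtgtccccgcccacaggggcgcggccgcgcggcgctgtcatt
Slc7a1, start inside the gene: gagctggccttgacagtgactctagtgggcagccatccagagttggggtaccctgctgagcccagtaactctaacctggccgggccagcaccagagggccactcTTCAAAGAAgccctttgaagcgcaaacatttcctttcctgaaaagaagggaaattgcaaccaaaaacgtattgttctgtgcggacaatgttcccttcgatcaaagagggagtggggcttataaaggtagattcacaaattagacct

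The stretch before Odc1 is 77.8% G or C and holds 24 CG pairs. The Slc7a1 stretches hold 21 and 5 CG pairs, and are 62.4% and 50% G or C, against a median of 52.4% over the 250 bases before all starts. STAT6, the factor downstream of the IL-4 receptor, is known to bind TTC and GAA separated by 4 bases. That motif, which reads the same on both strands, was in 0 of the 7 member promoters of 300 bases and in 6.95% of the 32851 promoters of that length. None of these 7 belongs to Arg1, Nos2 or Slc7a2. The form with 3 bases between, TTCNNNGAA, was in 1 of the 7 and in 8.30% of all promoters, and its match begins 146 bases before the inner Slc7a1 start. The motifs cannot share a match of TTC and GAA, since their spacing differs, and a match of letters is not evidence of binding.

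Libraries held between 28526782 and 29057787 expected counts, which are estimated reads per gene. Replicates differed beyond the sampling noise of reads, with a chi-square per degree of freedom of 2.43 to 43.5. This measure cannot tell separate cultures from repeat libraries of one culture. Control replicate 3 and IL-4 replicate 6 stood most apart from the other libraries of their groups, and in both the difference moved with transcript length. In control replicate 3, genes with transcripts under 1500 bases had a median log2 difference of 0.16 from the other controls and genes of 6000 bases or more had -0.19. In IL-4 replicate 6 the same medians were 0.32 and -0.40. The long transcripts Slc7a1 (7139 bases) and Slc7a2 (7720 bases) had lower normalized counts in these libraries, with log2 differences of -0.28 and -0.25 in control replicate 3 and of -0.30 and -0.33 in IL-4 replicate 6. The short Sat1 transcript (1177 bases) had log2 differences of 0.28 and 0.35. Fold changes and counts of calls below were also computed without both libraries.

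**Figure D1:**
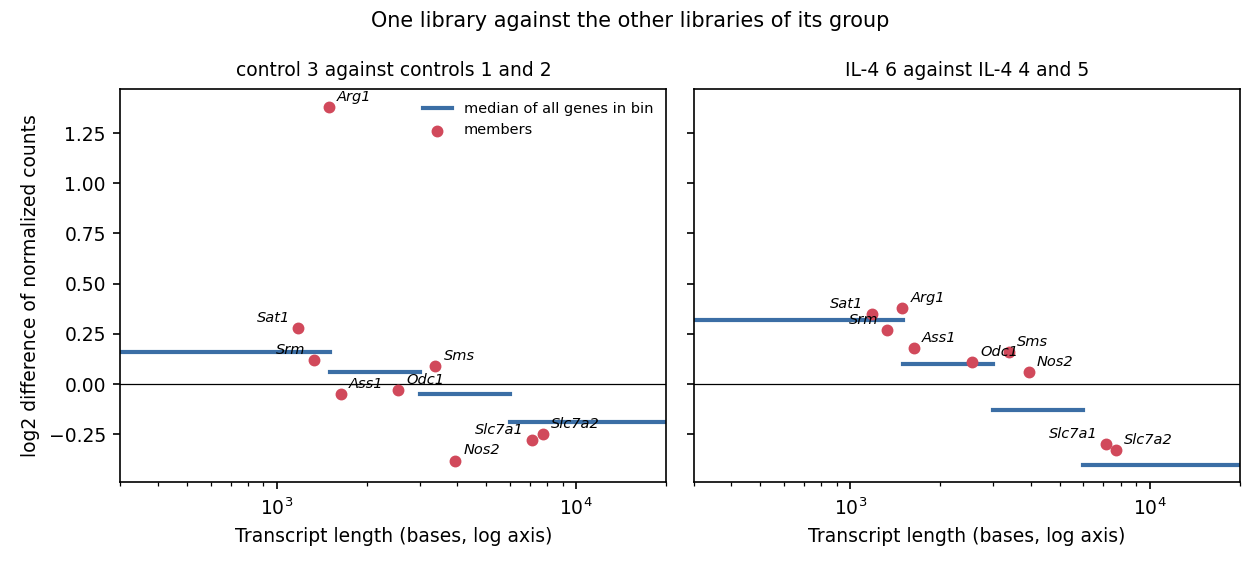
Difference of control replicate 3 from controls 1 and 2 (left) and of IL-4 replicate 6 from replicates 4 and 5 (right), as log2 of normalized counts, against transcript length on a log axis. Red points are the 9 tested genes and blue lines the medians of all genes in 4 length bins, which fall from 0.16 to -0.19 on the left and from 0.32 to -0.40 on the right.

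IL-4 raised Arg1 from a low level to one of the most abundant mRNAs in the culture. It also raised Slc7a2 and the low-level Nos2, and lowered Odc1. Of the 9 genes with enough reads to test, 5 were upregulated (Arg1, Nos2, Slc7a2, Slc7a1 and Sat1) and 1 was downregulated (Odc1) at an adjusted p under 0.05 in edgeR's quasi-likelihood test. Ass1, Srm and Sms passed in neither direction, and Arg2 had too few reads. These are bulk libraries, in which a change in the number of cells of a type and a change in RNA per cell cannot be told apart. Among all 14009 genes tested, 19.0% were higher, 18.4% lower and 37.4% changed in either direction. With a log2 fold change beyond 1 added, 3 members (Arg1, Nos2 and Slc7a2) were higher and 0 lower, against 5.77% and 5.26% of all genes. The median log2 fold change was 0.39 over the tested members and 0.003 over all tested genes. In 7 of the 9, the groups did not overlap in normalized counts, which held for 50.4% of all genes. The counts of 5 and 1 were the same without control replicate 3 and IL-4 replicate 6, a fit added after seeing the data. The higher count was 4, without Sat1, with upper-quartile scaling, library totals or limma on FPKM. It was also 4 without control replicate 1 or without control replicate 2. The lower count was 2 with library totals.

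**Figure D2:**
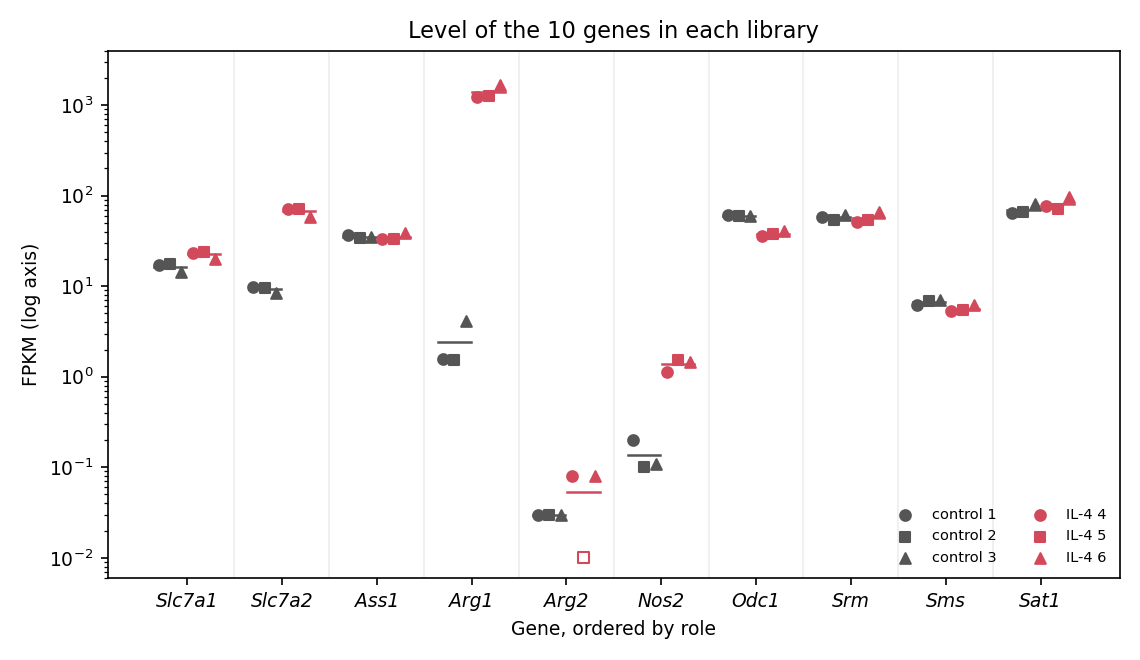
FPKM of each gene in each library on a log axis, with controls in grey, IL-4 libraries in red and lines at the group means. Arg1 rises from 1.53 to 4.15 into the range of 1223 to 1661, and the open square marks the IL-4 library in which Arg2 is not listed, placed at the bottom of the axis.

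**Figure D3:**
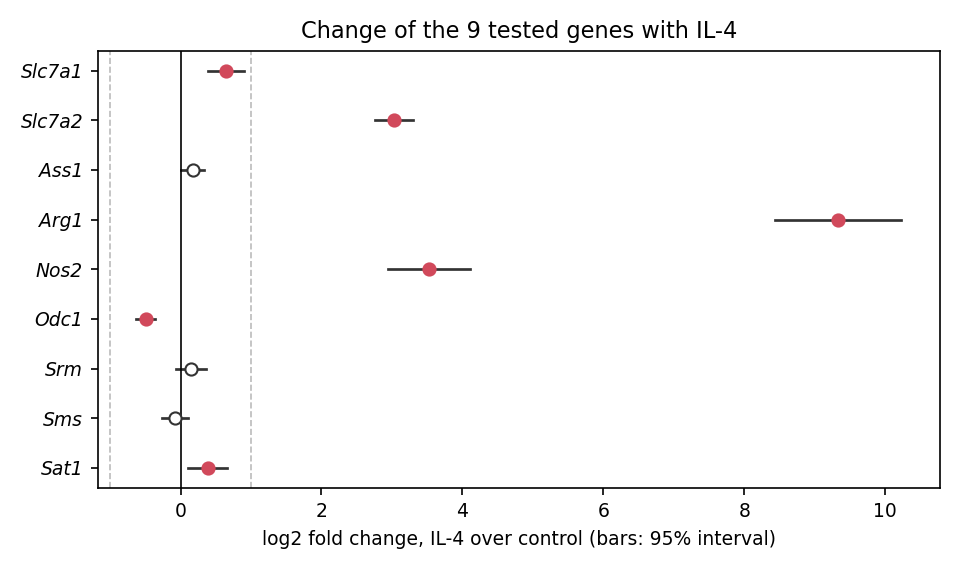
Log2 fold change of IL-4 over control for the 9 tested genes with 95% intervals, filled where the adjusted p is under 0.05. Dashed lines mark a log2 fold change of 1 in either direction, beyond which lie Arg1 (9.33), Nos2 (3.52) and Slc7a2 (3.03).

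Arginine uptake was examined first. Slc7a2 (chr8:40862341-40922070) encodes CAT2, the cationic amino acid transporter that cytokines induce in several cell types. Its FPKM, a level scaled by transcript length and library size, was 9.89, 9.59 and 8.33 in control and 71.9, 71.0 and 58.6 with IL-4. The groups were far apart, with the lowest IL-4 library 6.54 times the highest control in normalized counts. Slc7a2 rose by a log2 fold change of 3.03 (SE 0.118, adjusted p = 8.37e-07), or 8.18-fold.

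Slc7a1 (chr5:148327410-148399904) encodes CAT1, the broadly expressed member of the same family. Its FPKM was 17.1, 17.4 and 14.4 in control and 23.5, 24.2 and 20.1 with IL-4, and the groups did not overlap. The rise was a log2 fold change of 0.64 (SE 0.109, adjusted p = 0.00233). The order of the transporters by FPKM turned around: Slc7a2 made up 35.5% to 36.7% of their summed FPKM in control and 74.5% to 75.3% with IL-4. The sum itself went from 22.7 to 27.0 FPKM in control to 78.6 to 95.4 FPKM with IL-4. The log2 ratio of Slc7a2 to Slc7a1 was -0.81 ± 0.04 in control and 1.57 ± 0.04 with IL-4 (SD, n = 3 each). The difference of 2.37 had an exact two-sided permutation p of 0.1, the smallest that 3 against 3 libraries allow.

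Ass1 (chr2:31470270-31520670) encodes argininosuccinate synthase, which carries out the first step from citrulline back to arginine. Its FPKM was 37.1, 33.9 and 34.6 in control and 33.6, 33.1 and 38.8 with IL-4. The FPKM ranges overlapped and both means were 35.2, whereas normalized counts, which use another scaling, were 1452 to 1575 in control and 1603 to 1824 with IL-4. The log2 fold change was 0.17 (95% interval 0.005 to 0.34) and missed the threshold after adjustment in edgeR (adjusted p = 0.101). On FPKM with limma it was -0.0036.

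Arg1 (chr10:24915207-24927470) encodes the cytosolic arginase of liver and of IL-4-exposed macrophages. Its libraries held 64, 62 and 169 reads in control and 50213, 52187 and 68770 reads with IL-4. On the FPKM scale this was 1.58, 1.53 and 4.15 against 1223, 1267 and 1661. The groups were separated by a factor of 339 in normalized counts between the lowest IL-4 and the highest control library. Arg1 had the largest change of the members, a log2 fold change of 9.33 (SE 0.389, 95% interval 8.43 to 10.23, adjusted p = 1.18e-06). By FPKM it ranked between 9338 and 11249 in the control libraries, which list 16580 to 16663 genes each. It ranked between 19 and 25 in the IL-4 libraries. It took 0.174% to 0.237% of all expected counts with IL-4.

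Control replicate 3 held more Arg1 reads than the other controls, and this library was also high in other genes that IL-4 raised strongly. Chil3, a chitinase-like protein gene, had 4, 9 and 77 control reads, Retnla 2, 2 and 18, and the lectin gene Mgl2 10, 11 and 21. These 3 genes were chosen after their values were seen. Read counts in control replicate 3 were 0.296% of the IL-4 mean for Arg1, 0.116% for Chil3, 0.151% for Retnla and 0.196% for Mgl2. These shares use all reads of that library. The reads found in the other controls, 64 and 62 for Arg1, were not subtracted. Whether IL-4 culture RNA or reads reached this library was not tested. Without control replicate 3 and IL-4 replicate 6 the log2 fold change of Arg1 was 9.83.

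Arg2 (chr12:79130788-79156301), the mitochondrial arginase, was close to the limit of detection. It had 1 read in every control library and 3, 0 and 3 with IL-4. Since both groups were at or under 3 reads per library, no fold is given. The log2 ratio of Arg1 to Arg2, with 0.1 FPKM added to each, rose from 4.12 ± 0.79 to 13.18 ± 0.45 (SD, n = 3 each), a difference of 9.05 (exact two-sided permutation p = 0.1, the smallest possible). The ratio is set by the added value where Arg2 is near 0.

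Nos2 (chr11:78920787-78960226) encodes inducible nitric oxide synthase, the enzyme of macrophages activated by microbial products. It had 22, 11 and 12 reads in control and 128, 178 and 163 with IL-4, which is 0.20, 0.10 and 0.11 FPKM against 1.13, 1.54 and 1.44 FPKM. The groups did not overlap, and Nos2 rose by a log2 fold change of 3.52 (SE 0.252, adjusted p = 2.02e-05). On log2(FPKM + 1) and log2(FPKM + 0.1) with limma the difference was 1.06 and 2.65, since adding a constant shrinks the change of a gene at this level. It stayed a low mRNA, ranking between 11095 and 11563 by FPKM with IL-4. The ratio of Arg1 to Nos2 FPKM was 7.90, 15.3 and 37.7 in control and 1082, 823 and 1154 with IL-4. Arg1 made up 87.3% to 96.7% of the summed FPKM of Arg1, Arg2 and Nos2 in control and 99.9% in each IL-4 library.

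The polyamine genes moved much less. Odc1 (chr12:17544808-17551502) encodes ornithine decarboxylase, which makes putrescine from ornithine and is commonly taken as the rate-limiting enzyme of the pathway. Its FPKM was 61.5, 59.7 and 60.0 in control and 35.6, 37.5 and 40.6 with IL-4. All IL-4 libraries lay below all control libraries, and Odc1 fell to 0.709 times the control level (log2 fold change -0.50, SE 0.0591, adjusted p = 0.000344). Odc1 exceeded Arg1 in control, where the Arg1 to Odc1 FPKM ratio was 0.03 to 0.07, and with IL-4 the ratio was 33.7 to 40.9.

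Srm (chr4:148591513-148594619) encodes spermidine synthase. Its FPKM was 58.6, 53.8 and 61.8 in control and 51.9, 53.9 and 65.7 with IL-4, with overlapping groups. The log2 fold change of 0.15 had a 95% interval of -0.06 to 0.36 (adjusted p = 0.237). Sms (chrX:157443851-157492287) encodes spermine synthase, with 6.28, 6.85 and 7.08 FPKM in control and 5.35, 5.45 and 6.22 FPKM with IL-4. Its FPKM ranges did not overlap but its normalized counts did, and the log2 fold change was -0.08 (95% interval -0.26 to 0.11, adjusted p = 0.506). With library totals in place of TMM, Sms passed as lower (-0.25, adjusted p = 0.0491) and Srm turned to -0.02. For both synthases, the intervals in the TMM fit exclude a change beyond a log2 fold change of 1.

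Sat1 (chrX:155213126-155216449) encodes the acetyltransferase that marks spermidine and spermine for breakdown or export. Its FPKM was 64.4, 66.2 and 80.2 in control and 76.3, 71.6 and 96.7 with IL-4. The FPKM ranges overlapped because control replicate 3 exceeded IL-4 replicates 4 and 5. In normalized counts the groups were just apart, at 1936 to 2393 and 2451 to 3221. The log2 fold change was 0.39 (SE 0.12, adjusted p = 0.0362). The call was lost without control replicate 1 (0.33, adjusted p = 0.136) or 2 (0.35, adjusted p = 0.12), with upper-quartile scaling (0.37, adjusted p = 0.0644) and with library totals (0.22, adjusted p = 0.205), and it was kept without control replicate 3 and IL-4 replicate 6 (0.36, adjusted p = 1.35e-05). The FPKM ratio of Odc1 to Sat1 was 0.96, 0.90 and 0.75 in control and 0.47, 0.52 and 0.42 with IL-4, with no overlap.

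By FPKM, the order in control was Sat1, Odc1, Srm, Ass1, Slc7a1, Slc7a2, Sms, Arg1, Nos2 and Arg2. Only the ranges of Odc1 and Srm overlapped among neighbours in that order. With IL-4 the order was Arg1, Sat1, Slc7a2, Srm, Odc1, Ass1, Slc7a1, Sms, Nos2 and Arg2. There the ranges of Sat1 and Slc7a2, of Slc7a2 and Srm, and of Odc1 and Ass1 overlapped. Arg1 thus moved from the eighth to the first place, and Slc7a2 from the sixth to the third.

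The profile of Arg1 over the 6 libraries was most like those of Msx3 (Pearson r = 0.9999), Tuba8 (r = 0.9999) and Lgi3 (r = 0.9996), on log2 normalized counts. Msx3, a homeobox gene, had 0, 0 and 2 reads in control and 1499, 1582 and 1838 with IL-4. Tuba8, an alpha-tubulin gene, had 1, 1 and 4 reads against 413, 422 and 515. Both share with Arg1 the higher count in control replicate 3, but there it rests on 2 reads for Msx3 and 4 for Tuba8. They were picked for their likeness to Arg1 over these same 6 libraries, so the shared trait is not separate evidence about control replicate 3. The libraries form separate groups, so r is high for many genes with a large change, and 370 genes exceeded an r of 0.99.

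Of 53 further genes in 5 lists of arginine and polyamine metabolism, 50 were listed and 43 could be tested. In total, 9 were upregulated and 8 downregulated, with a median log2 fold change of 0.01, and 26 passed in neither direction. These shares, 20.9% and 18.6%, were close to those of all genes, 19.0% and 18.4%. With library totals in place of TMM, the median of all genes moved to -0.17 and the split over all genes from 2663 higher and 2582 lower to 1704 higher and 4963 lower. The number of lower genes in the lists was then 13.

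**Figure D4:**
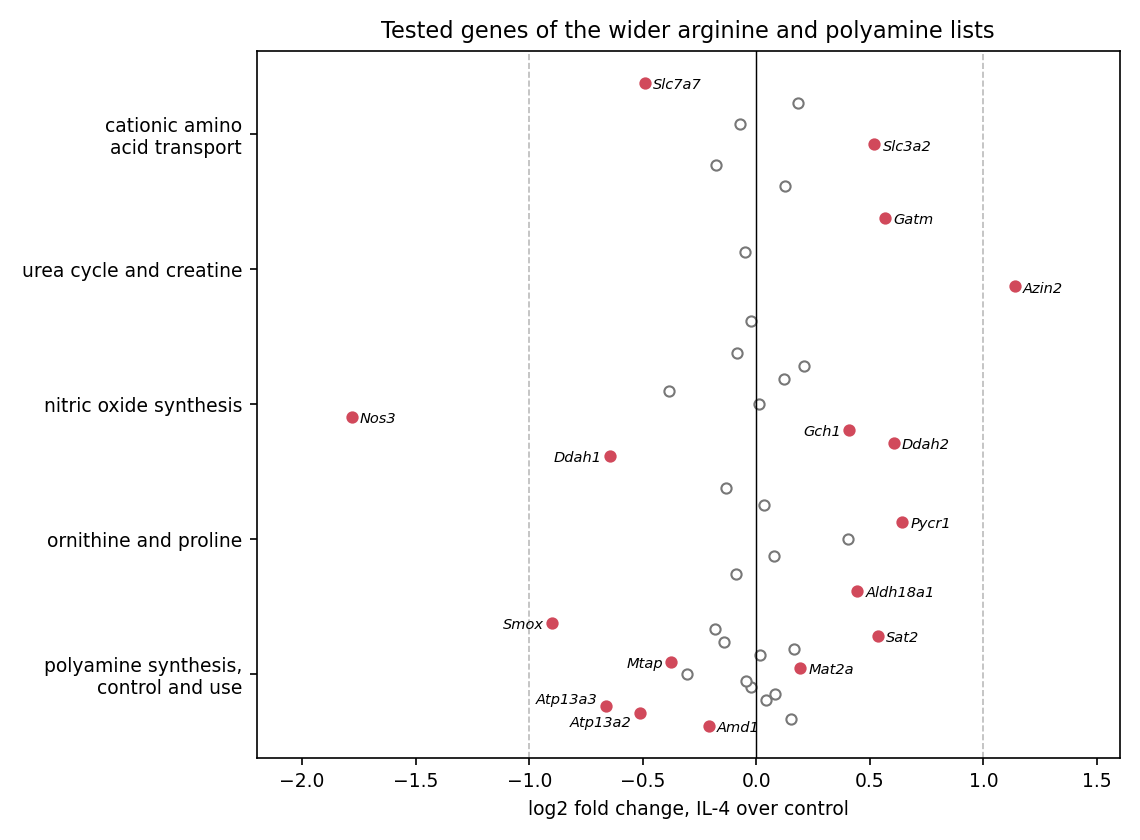
Log2 fold change of IL-4 over control for the 43 tested genes of 5 lists, filled and named where the adjusted p is under 0.05 and open otherwise. Azin2 (1.14) and Nos3 (-1.78) are the points beyond the dashed lines at a log2 fold change of 1 in the edgeR fit.

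Among 9 other cationic amino acid carriers, 6 could be tested. Slc3a2, the heavy chain shared by several amino acid exchangers, rose from 93.1 to 102 FPKM in control to 115 to 142 FPKM with IL-4 (log2 fold change 0.52). Slc7a7, a light chain that exports arginine, fell (-0.49). Both kept their direction and their call in all 13 alternatives, which are 6 other scalings, filters or tests, 6 fits without 1 library and the fit without both libraries named above. Slc7a3, the remaining arginine transporter of the CAT family, had 310 to 429 reads per library and did not pass.

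In the list of the urea cycle and creatine synthesis, 4 of 8 genes could be tested and 2 rose. Azin2, an inhibitor of antizyme and so a positive regulator of ornithine decarboxylase, had 1556, 1440 and 1569 reads in control and 2857, 2872 and 3306 with IL-4. The groups were well apart and the log2 fold change was 1.14 (adjusted p = 7.35e-06). Gatm, which uses arginine for creatine, rose by 0.57 and was named after its value was seen. The urea cycle genes Cps1 and Nags had at most 1 read in any library and Otc was not listed, while Asl, the partner enzyme of Ass1, had a log2 fold change of -0.02 and did not pass.

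Around nitric oxide synthesis, 9 of 10 genes could be tested, of which 2 rose and 2 fell. Nos3, the endothelial nitric oxide synthase, fell from 57, 40 and 34 reads to 10, 11 and 13 reads, opposite to Nos2. Its log2 fold change was -1.78 (SE 0.284, adjusted p = 0.00164) and it was lower in all 13 alternatives, at -2.03 to -0.33, the smallest on the log2(FPKM + 1) scale. The other genes that passed were named after their values were seen. Ddah1 (-0.64) and Ddah2 (0.60), which both remove an inhibitor of nitric oxide synthase, moved in opposite directions. Gch1 (0.41), which starts the synthesis of the cofactor tetrahydrobiopterin, rose but kept the call in 8 of 13 alternatives.

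The route from glutamate to proline rose in part. All 7 genes of ornithine and proline could be tested and 2 rose: Pycr1, a pyrroline-5-carboxylate reductase (0.64), and Aldh18a1, which makes pyrroline-5-carboxylate from glutamate (0.45). Both were called in all 13 alternatives. Oat, which links ornithine to this route, had 99.0 to 110 FPKM in the libraries, a level above that of Odc1, and a log2 fold change of 0.08 that did not pass.

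In the polyamine list, 17 of 19 genes could be tested, with 2 higher and 5 lower. Azin2, which rose and also acts on ornithine decarboxylase, was counted in the urea cycle and creatine list instead. Smox, spermine oxidase, fell most (log2 fold change -0.90), from 647 to 697 reads in control to 289 to 379 with IL-4. The transport ATPase genes Atp13a3 (-0.66) and Atp13a2 (-0.51), the methylthioadenosine salvage gene Mtap (-0.38) and Amd1 (-0.21), the S-adenosylmethionine decarboxylase, also fell. The call of Amd1 was kept in 9 of 13 alternatives. Amd1 has a near-identical copy, Amd2, so its reads may be split. Amd2 was assigned 2 to 11 reads per library, against 1559 to 2157 for Amd1. Sat2 (0.53) and Mat2a (0.19), which makes S-adenosylmethionine, rose, but both kept the call in only 5 of 13 alternatives. All but Smox, Atp13a3 and Sat2 were named after their values were seen. The antizyme gene Oaz1, the antizyme inhibitor gene Azin1 and Eif5a, the translation factor modified with spermidine, had log2 fold changes of 0.02, 0.04 and -0.05 and did not pass.

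Macrophages are a further known source of Arg1 with IL-4, so markers of other cells were read beside it. All 15 macrophage markers had reads in every library, Cx3cr1 and Aif1 only 3 to 13 with IL-4, although CD45-positive cells had been depleted. The CD45 gene Ptprc had 2506 to 2798 reads in control and 1195 to 1263 with IL-4. Of the 15 markers, 14 were lower with IL-4 and 0 higher, against 18.4% and 19.0% of all tested genes. The median log2 fold change of the 15 was -0.99, and the size of the fall differed widely. The 14 ranged from 0.0025 times (Cx3cr1) to 0.83 (Itgam) and 0.85 times (Adgre1) the control level. The summed FPKM of the 15 was 3670 to 4724 in control and 1397 to 1887 with IL-4. Cx3cr1 fell from 1484, 1725 and 1853 reads to 3, 3 and 5, and Cd68 was the marker that did not pass. Between groups, Arg1 and the sum moved in opposite directions. Lyz2 made up 67.3% to 68.3% of the sum in control and 48.2% to 49.7% with IL-4, and without it the sum was 1195, 1200 and 1500 FPKM in control and 724, 759 and 950 FPKM with IL-4. Control replicate 3 and IL-4 replicate 6, the libraries with more reads of short transcripts, had the highest sum and the highest Arg1 (1489 bases) of their groups. The markers did not all follow, as Ptprc (1195 reads), Itgam (4204) and Mertk (291) were lowest in IL-4 replicate 6 among the IL-4 libraries.

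Of 10 genes typical of macrophages after IL-4, 8 could be tested, with 7 higher and 1 lower (Msr1). Among all tested genes 19.0% were higher and 18.4% lower, which are the shares to set beside each list here. The chemokine genes Ccl17 and Ccl22 had too few reads to test. Ccl17 had 6, 4 and 7 reads in control and 1, 0 and 3 with IL-4. Ccl22 had 0, 3 and 6 reads in control and 9, 6 and 17 with IL-4. The sum of the 10 genes was 121 to 146 FPKM in control and 2439 to 3231 with IL-4. Different genes made up most of it: Mrc1 (mean 93.4 FPKM) and Msr1 (39.9) in control, Chil3 (1552) and Retnla (775) with IL-4. Chil3 had the largest change, with 58293 to 75844 reads in the IL-4 libraries. Markers of APs were abundant, with sums of 6383 to 6688 FPKM in control and 9537 to 10201 with IL-4, and 7 of 12 rose and 3 fell. Col1a1 and Col3a1 made up 84.1% to 88.6% of these sums, and without them the sums were 979 to 1025 FPKM in control and 1155 to 1289 FPKM with IL-4. Ly6a, the SCA-1 gene, rose 2.29-fold, and Pi16, a marker of early fibroblasts and precursors, rose most, 16.3-fold. The markers that fell were Dlk1 (log2 fold change -0.67), Pdgfrb (-0.66) and Lum (-0.61). Endothelial markers summed to 13.5 to 14.4 FPKM in control and 14.9 to 16.8 FPKM with IL-4, and of the 7, all tested, 2 rose and 2 fell. Vwf rose from 0.80 ± 0.114 to 5.97 ± 0.817 FPKM (SD, n = 3 each) and Tek rose 1.75-fold. Cdh5 fell from 3.38 ± 0.0404 to 0.987 ± 0.166 FPKM and Emcn from 1.61 ± 0.123 to 0.51 ± 0.217 FPKM, in the same direction as Nos3. Lymphocyte markers summed to at most 1.26 FPKM, and the 1 that could be tested, Lck, fell. Genes of mature adipocytes summed to 35.8 to 41.9 FPKM and 57.3 to 80.9 FPKM, of which Fabp4 made up most. Of the 8, 2 could be tested, Fabp4 rose and Lipe fell, and Cidec, Lep and Retn were not listed. How much of the Arg1, Slc7a2 and Nos2 mRNA came from macrophages was not tested.

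**Figure D5:**
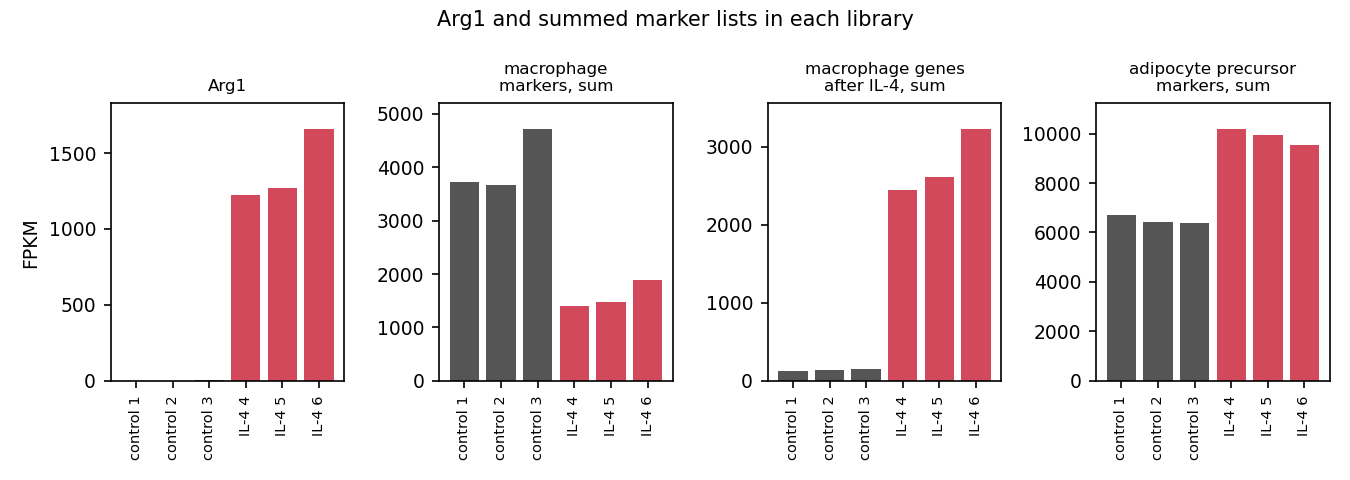
FPKM of Arg1 and summed FPKM of 3 marker lists in each library, with controls in grey and IL-4 libraries in red, each panel on its own axis from 0. The macrophage marker sum falls from at least 3670 to at most 1887, while Arg1 and the sum of the IL-4 macrophage genes rise.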

How the data were processed

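Poly-A mRNA libraries from 3 control and 3 IL-4 AP cultures were sequenced on the BGISEQ-500 by BGI. The authors filtered reads with SOAPnuke and mapped them to the mouse genome, and the labels list HISAT, StringTie, Bowtie2 and RSEM with build mm10. The deposited expected counts are the authors' estimated counts per gene, not normalized, and 87.0% to 87.2% are whole to within 1e-09. The deposited FPKM were scaled by the authors for transcript length and library size. A gene without a row was taken as 0. A row that names no gene (at most 0.000225% of counts) was left out, and the deposited annotation columns and the small RNA files, which hold no member, were not used here.

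Expected counts were rounded, filtered (filterByExpr, minimum count 10, minimum total 15), scaled by TMM and compared with edgeR 4.0.16 (quasi-likelihood test, R 4.3.3, no covariates, Benjamini-Hochberg adjustment over 14009 genes). Normalized counts are counts divided by the TMM-scaled library size and multiplied by its mean. Depth was 28526782 to 29057787 counts per library, and counts of 3 or fewer were given no fold. Alternatives were DESeq2 1.42.0, upper-quartile scaling, library totals, no filter, FPKM with limma 3.58.1 after adding 1 or 0.1 and taking log2, each library left out in turn and, added after seeing the data, control replicate 3 and IL-4 replicate 6 left out together. Paralogues were compared with a two-sided exact permutation test. Counts were simulated for 13798 genes, with both groups drawn from the means and dispersions of the control libraries. The fit called 90 of 100 genes changed by a log2 fold change of 1. It called 98 of 98 changed by 2 and 9 of 13600 unchanged genes. Few genes were changed and no length trend was simulated, unlike in these data, so these rates may not hold here. Figures and sums used Python 3.11.15.

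The members, lists and tests were chosen with earlier results of these data known. The genes named are all members; in each list those beyond a log2 fold change of 1, otherwise up to 3 with the largest change at an adjusted p under 0.05; markers with the highest and lowest change or at 0; and the 3 genes, with a mean of at least 100 normalized counts, most like the member that changed most. Slc7a3, Asl, Oat, Oaz1, Azin1, Eif5a, Ptprc and other genes outside this rule were named for their role or after their values were seen. Cutoffs are an adjusted p of 0.05 and a log2 fold change of 1, the authors' own. Lists are described by counts only. Promoters are those of RefSeq on GRCm38.p6.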

Additional observations from a re-analysis of the deposited data

How the results depend on the processing

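Of the 212 values recomputed, 194 were classed as the same. For fold changes this meant the same direction and side of the threshold, and for ratios a move smaller than the spread. Counts of genes were classed by a loose proportional margin. The higher genes of the 5 lists, 9 in the main fit, were thus classed as the same at 6 with library totals. They were also so classed at 12 without control replicate 3 and IL-4 replicate 6. Ass1 turned to -0.0036 with limma on log2(FPKM + 1) and -0.0037 on log2(FPKM + 0.1), and Srm to -0.02 with library totals and to -0.03 and -0.03 with limma. None of these passed the threshold in either form. Sms passed with library totals (-0.25, adjusted p = 0.0491). Sat1 did not pass with upper-quartile scaling (0.37), library totals (0.22) or limma (0.21 and 0.21), nor without control replicate 1 or 2. The lower members were then 2 with library totals, and the lower genes of the 5 lists 13 with library totals and 14 and 14 with limma. Library totals and limma on FPKM also moved the median log2 fold change of all genes from 0.003 to between -0.17 and -0.133, by the construction of the scaling. Nos2 moved from 3.52 to 1.06 and 2.65 with limma, by the added constants. The log2 ratio difference of Slc7a2 to Slc7a1 was 2.28 with a pseudocount of 1. The share of promoters was 8.30% for TTCNNNGAA.

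With each library left out in turn, log2 fold changes ranged from 9.09 to 9.96 for Arg1, 3.35 to 3.90 for Nos2, 2.95 to 3.14 for Slc7a2, 0.55 to 0.74 for Slc7a1, 0.12 to 0.22 for Ass1, -0.53 to -0.45 for Odc1, 0.06 to 0.22 for Srm, -0.13 to -0.03 for Sms and 0.27 to 0.49 for Sat1. Higher members numbered 4 to 5, lower members 1, higher genes of the lists 6 to 9 and lower ones 7 to 10. The ratio differences ranged from 8.82 to 9.51 for Arg1 to Arg2 and from 2.35 to 2.38 for Slc7a2 to Slc7a1. No paired analysis was possible because the control and IL-4 mRNA libraries share no replicate number. The depth limits Arg2, with at most 3 reads in a library.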
